A study of Homo sapiens with 3 samples.

Results

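The probe sets of histone genes were followed in HT29 cells that carried a miR-146a construct or an empty vector. Members were all probe sets of the array whose platform symbols begin with the names of histone genes, both the genes that lie in the histone clusters and the separate genes for H2A.Z, H2A.X, H2A.J, H3.3 and linker histones. The rule found 101 probe sets with 75 symbols, among 54613 probe sets with 21357 symbols besides array controls. The symbols were chosen by the rule, but the family was selected on earlier results of these same arrays, so the miR-146a values minus the vector values below are a description of these members and support nothing further. Of the 101 sets, 71 read genes named for the clusters, 28 read genes outside them, and 2 read neither kind of histone messenger RNA, a pseudogene (H1-9P) and an antisense RNA (H1-10-AS1) that share the prefix. The symbols do not say which sets read polyadenylated transcripts, and the groups are therefore called by gene location only. H2BC12L carries a cluster name although its gene lies elsewhere, and H2AC5P and H4C10P are pseudogenes.

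HT29 is a cell line that was derived from a human colorectal adenocarcinoma. The miR-146a cells received a miR-146a expression construct by lentivirus, and the vector cells received the empty lentiviral vector. Both were HT29 cells grown in DMEM with 10% FBS, and the labels do not say whether either was 1 clone or a pool of transduced cells. The series holds 2 arrays of miR-146a cells, with the labels giving no word on separate cultures, and 1 array of vector cells.

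Histones are the proteins around which DNA is wound, with H2A, H2B, H3 and H4 in the core of the nucleosome and H1 on the DNA that links nucleosomes. Most are made from clustered genes that are switched on in S phase, and their messenger RNAs usually end in a stem-loop bound by SLBP in place of a poly(A) tail. Separate genes make variants such as H2A.Z, H2A.X and H3.3, whose messenger RNAs are usually polyadenylated and made outside S phase too, and some clustered genes, H2AC6 and H2BC21 among them, are known to give polyadenylated transcripts as well. The sources used here do not name the primer that began complementary DNA synthesis, so the share of stem-loop and of polyadenylated messages in these signals is unknown.

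The expressed microRNA is shown with its seed, bases 2 to 8, in capitals, because the seed sets which messages a microRNA can pair with. RefSeq places hsa-miR-146a-5p on the plus strand at chr5:160485372-160485393 of GRCh38.p14. Its 22 bases read 5′ to 3′ as follows.
hsa-miR-146a-5p: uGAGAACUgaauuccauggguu

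The start-site regions of H2AC6, H2AC18 and H2BC21, whose sets were past the size used below, are shown next. Those of H1-2, a linker histone gene with a lower set, and of H2AZ1, a variant gene outside the clusters, stand beside them. Each holds 250 bases before and 50 bases after the start that RefSeq lists first on GRCh38.p14, read 5′ to 3′ on the gene's own strand. Capitals mark 3 motifs on either strand, the TATA box (TATAAA), the CCAAT box (CCAAT) and the octamer (ATTTGCAT) that the factor POU2F1 recognises. H2AC6 lies at chr6:26123922-26124221, plus strand, H2AC18 at chr1:149842701-149843000, minus strand, H2BC21 at chr1:149886633-149886932, minus strand, H1-2 at chr6:26056421-26056720, minus strand, and H2AZ1 at chr4:99950226-99950525, minus strand.
H2AC6: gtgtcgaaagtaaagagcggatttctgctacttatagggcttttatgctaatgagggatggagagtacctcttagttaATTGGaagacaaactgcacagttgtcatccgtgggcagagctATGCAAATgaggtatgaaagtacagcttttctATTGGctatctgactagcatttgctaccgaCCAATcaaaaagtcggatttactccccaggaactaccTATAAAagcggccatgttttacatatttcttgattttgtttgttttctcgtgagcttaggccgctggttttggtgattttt
H2AC18: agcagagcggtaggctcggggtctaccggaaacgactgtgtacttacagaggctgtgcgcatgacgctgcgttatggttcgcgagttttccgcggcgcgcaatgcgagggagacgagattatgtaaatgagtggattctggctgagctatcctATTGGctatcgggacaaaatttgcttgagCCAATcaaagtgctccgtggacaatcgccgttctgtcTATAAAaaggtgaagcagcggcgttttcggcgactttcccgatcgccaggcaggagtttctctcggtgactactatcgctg
H2BC21: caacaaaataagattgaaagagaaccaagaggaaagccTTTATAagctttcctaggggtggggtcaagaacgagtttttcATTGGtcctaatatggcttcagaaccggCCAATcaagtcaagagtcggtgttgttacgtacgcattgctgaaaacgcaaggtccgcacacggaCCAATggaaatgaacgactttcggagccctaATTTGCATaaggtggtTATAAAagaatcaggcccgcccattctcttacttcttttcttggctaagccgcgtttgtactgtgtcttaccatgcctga
H1-2: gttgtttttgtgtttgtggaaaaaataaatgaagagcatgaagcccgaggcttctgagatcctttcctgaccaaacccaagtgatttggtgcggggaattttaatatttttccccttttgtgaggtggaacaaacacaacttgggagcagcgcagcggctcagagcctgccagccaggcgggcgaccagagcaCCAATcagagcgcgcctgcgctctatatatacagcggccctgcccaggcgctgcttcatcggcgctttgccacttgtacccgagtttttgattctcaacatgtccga
H2AZ1: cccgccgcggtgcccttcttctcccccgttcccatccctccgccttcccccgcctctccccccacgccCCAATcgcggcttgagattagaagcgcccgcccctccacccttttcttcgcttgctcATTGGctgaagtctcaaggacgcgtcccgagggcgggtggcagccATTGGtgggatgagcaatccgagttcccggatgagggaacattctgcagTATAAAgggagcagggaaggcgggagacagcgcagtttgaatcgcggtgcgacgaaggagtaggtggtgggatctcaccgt

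A promoter was listed for 65 of the 75 histone genes. The octamer stood in 22 of 56 promoters of clustered genes (39.3%), against 1.8% of the 27305 promoters in the table. It was found in 13 of 16 H2B promoters and 8 of 13 H2A promoters, but in 1 of 8 H3 promoters and in none of the 6 H1 or 13 H4 promoters searched. The CCAAT box stood in 46 of 56 clustered promoters (82.1%), against 35.7% of all, with H4 the exception at 3 of 13. TATAAA stood in 36 of 56 clustered promoters (64.3%), against 3264 of the 27305 in the table. Of the 9 promoters of histone genes outside the clusters, 8 held the CCAAT box (88.9%), 4 held TATAAA (44.4%) and 1 held the octamer (11.1%). The octamer overlaps no letter of the other motifs where it is capitalised above. Of the promoters shown, H2AC6 and H2BC21 hold 1 octamer each and H2AC18, H1-2 and H2AZ1 hold none. The promoters of H2AC18 and H2AC19 are identical over 299 overlapping bases at an offset of 1 base, and their probe sets likewise carry both symbols. A match describes letters only.

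All values are log2 values of the authors' RMA processing, and differences are miR-146a minus vector on that scale. Median values of the arrays were 5.14 and 5.12 for miR-146a replicates 1 and 2 and 5.13 for the vector. Over all sets, replicate 2 minus replicate 1 of the miR-146a cells had an SD of 0.14, and replicates 1 and 2 minus the vector had SDs of 0.20 and 0.19. Of 11 colon epithelium markers 10 had a set of their own, and all 10 lay above 5.13, the median signal of all sets. The leukocyte gene PTPRC was low at 3.36 and 3.30 in miR-146a cells, against 3.43 in vector cells. However, 2 of 4 leukocyte, 2 of 5 fibroblast and 1 of 3 endothelial markers lay above the median. LYZ, of the leukocyte list, was high at 12.72 and 12.96 in miR-146a cells, against 12.95 in vector cells. Whether the 2 sets named for the miR-146a gene can read the construct was not tested. One read 5.03 and 5.23 in miR-146a cells against 4.82 in vector cells, and the other 2.79 and 2.82 against 2.96. The control sets at the 5′ end of 2 reference messages, which respond to RNA integrity and labelling, were lower in both miR-146a arrays, by log2 differences of -0.29 and -0.18 for ACTB and -0.32 and -0.30 for GAPDH. Those at the 3′ end differed by 0.05 and 0.04 for ACTB and by -0.03 and -0.02 for GAPDH. The part of this in the histone values was not tested.

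Clustered histone sets read lower in the miR-146a cells, and sets outside the clusters lay close to 0. Of the 71 clustered sets, 40 read lower and 7 higher than the vector in both arrays of miR-146a cells, and their median difference was -0.12. In bulk RNA, fewer cells in S phase and less histone RNA per cell cannot be told apart. Of the 28 sets outside the clusters, 12 read lower and 7 higher, and the median was -0.00 in a range of -0.22 to 0.19. The H2A sets among them were lower in 9 of 14 and higher in 3, with a median of -0.02. Of the 9 H3 sets outside the clusters 2 were lower and 3 higher, and of the 5 H1 sets 1 was lower and 1 higher. Over all 54613 sets, 28.9% read lower and 29.1% higher, and the median was 0.00. Taking all 101 members, 53 were lower in both arrays, 15 higher and 33 mixed or equal.

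Much of the clustered family gave low signals, and its differences were larger in the sets above the signal median. Of the clustered sets, 28 stood above the signal median, against 24 of the 28 sets outside the clusters. Among those 28 clustered sets 20 read lower and 2 higher in both arrays. Their median was -0.26 over both arrays, -0.20 in replicate 1 and -0.34 in replicate 2. The other 43 clustered sets had a median of -0.06, with 20 lower and 5 higher. Among all 27306 sets above the median 33.1% were lower and 36.0% higher in both arrays. This filter used the mean of both groups, but a set near the median can pass it through 1 group. An H1-7 set, outside the clusters, passed through the vector value. It read 5.1276 in miR-146a cells and 5.1468 in vector cells, against a median of 5.1285.

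A difference of at least 0.5 in both miR-146a arrays was used to name the largest differences. It was met by 4 histone sets in the lower direction and by 0 in the higher one. Over all sets 0.850% met it in the lower and 0.551% in the higher direction, and 1.26% and 0.864% of those above the median. Every one of the 4 read a clustered H2A or H2B gene. At 0.3 there were 12 histone sets, against 3.31% of all sets.

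**Figure D1:**
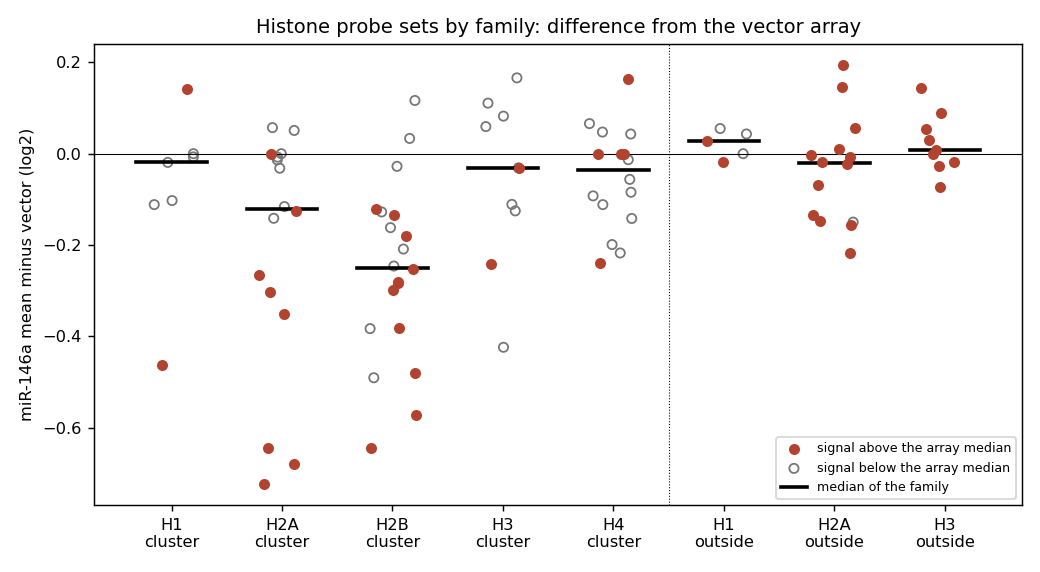
Difference of the miR-146a mean from the vector value (log2) for each histone probe set, by family, with clustered genes left and genes outside the clusters right, filled points for sets above the signal median and bars for family medians. H2B and H2A sets reach furthest below 0, and sets outside the clusters stay between -0.22 and 0.19; 2 sets shared by H2A and H3 genes and the pseudogene and antisense sets are not drawn.

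Of the core histones, H2A is the partner of H2B in the nucleosome. H2AC6 is a clustered H2A gene in the large cluster on chromosome 6. Its set read 7.71 and 7.74 in miR-146a cells, against 8.45 in vector cells. Both miR-146a arrays lay below the vector by much more than they differed from each other, with a mean of 7.73 ± 0.021 (SD, n = 2) and a 1.65-fold lower signal. The neighbouring gene H2BC4 differed by 0.07 and 0.00 in a set of its own below the signal median. It also has 3 sets shared with other H2B genes, of which 2 were lower in both arrays. The mean differences of those shared sets ran from -0.38 to -0.12.

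H2AC18 and H2AC19 are near-identical H2A copies in a smaller cluster on chromosome 1, and no set on the array separates them. Their first set read 10.56 and 10.51 in miR-146a cells, against 11.21 in vector cells. The second read 9.34 and 9.21 in miR-146a cells, against 9.92 in vector cells. Both sets were lower in each miR-146a array, with signals 1.6-fold and 1.56-fold lower. A further set for the same pair read 4.09 and 4.12 in miR-146a cells, against 4.12 in vector cells, and lay below the signal median.

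Smaller differences of the same direction were read by other H2A sets, of copies that make nearly the same protein. H2AC25 differed by -0.24 and -0.36 in one set, although its other set read 4.74 and 4.64 in miR-146a cells, against 4.64 in vector cells. H2AC14 read 7.37 and 7.29 in miR-146a cells, against 7.59 in vector cells. H2AC8 read 5.91 and 5.78 in miR-146a cells, against 6.20 in vector cells. Each of these 3 sets was lower in both arrays, as were 9 of all 16 clustered H2A sets, with 0 higher and a median of -0.12. Of the 8 H2A sets above the signal median 7 were lower, with a median of -0.33. The exception, the pseudogene H2AC5P, read 5.13 in all 3 arrays.

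H2B showed the same direction in most of its sets. Of 20 clustered H2B sets 16 read lower and 1 higher in both arrays, the median being -0.25, and of the 11 above the signal median 10 were lower and 0 higher. H2BC21, in the chromosome 1 cluster and known for a polyadenylated transcript, read 7.97 and 7.97 in miR-146a cells, against 8.54 in vector cells. The miR-146a arrays nearly coincided at 7.97 ± 0.0054 (SD, n = 2), and the signal was 1.49-fold lower.

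H2BC11 and H2BC8 share 2 sets. The first read 5.78 and 5.44 in miR-146a cells, against 6.26 in vector cells, a mean 1.56-fold lower signal. Its miR-146a arrays were spread by an SD of 0.24, and replicate 1 alone kept it under the size of 0.5. The second set read 7.04 and 7.04 in miR-146a cells, against 7.30 in vector cells, so both sets were lower but by unlike amounts.

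Other H2B copies also read lower. H2BC6 read 7.27 and 7.16 in miR-146a cells, against 7.69 in vector cells, 1.40-fold lower. H2BC5 was read by one set at 8.71 and 8.67 in miR-146a cells, against 9.07 in vector cells. A second H2BC5 set read 7.88 and 7.90 in miR-146a cells, against 8.18 in vector cells. In these 3 sets the miR-146a arrays lay close together and below the vector. H2BC12 read 9.46 and 9.47 in miR-146a cells, against 9.65 in vector cells. H2BC12L read 7.93 and 7.87 in miR-146a cells, against 8.18 in vector cells. The H2B set above the median that was not lower in both arrays is shared by H2BC4, H2BC10, H2BC6, H2BC7 and H2BC8. It read 5.87 and 5.37 in miR-146a cells, against 5.74 in vector cells, with the vector between the replicates.

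**Figure D2:**
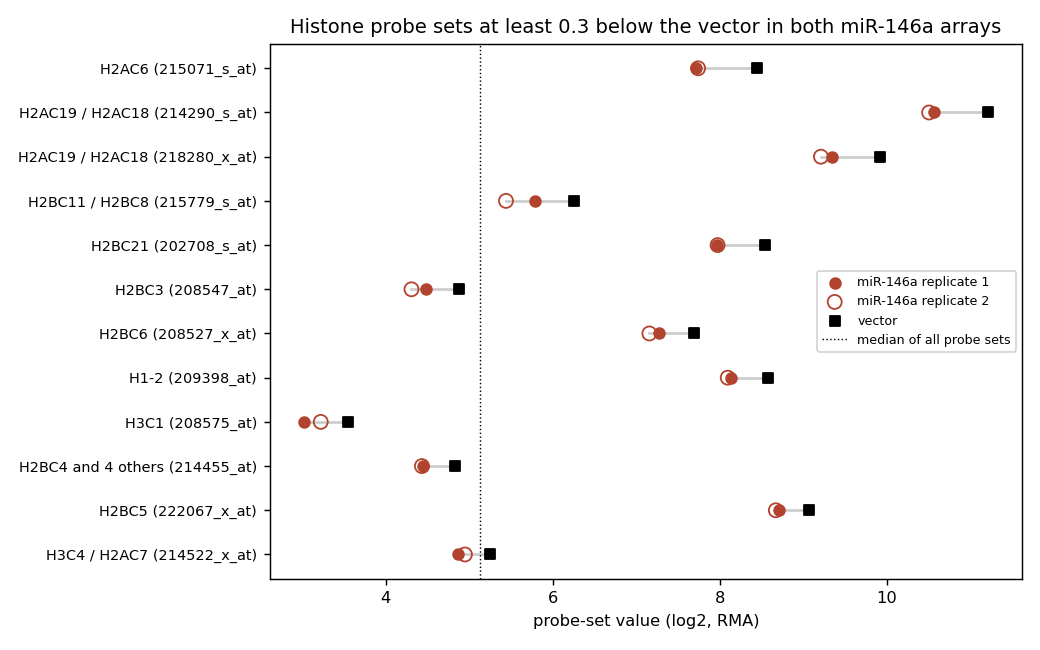
Log2 values of the 12 histone probe sets at least 0.3 below the vector in both miR-146a arrays, with miR-146a replicate 1 (filled circle), replicate 2 (open circle) and vector (black square), and the signal median dotted. The vector lies right of both miR-146a arrays in each set, and 8 of the 12 sets have a signal above the median; levels of different sets are not comparable.

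Linker histone genes were mixed. H1-2, a clustered gene for a somatic H1, read 8.13 and 8.09 in miR-146a cells, against 8.58 in vector cells, 1.38-fold lower. H1-3, another somatic H1, read 5.32 and 5.46 in miR-146a cells, against 5.25 in vector cells, close to the signal median. H1-2 was thus below and H1-3 above the vector in both arrays, and the other 5 clustered H1 sets lay under the signal median. H1-10, a linker histone gene outside the clusters, read 10.67 and 10.62 in miR-146a cells, against 10.62 in vector cells. H1-7, a germ-cell linker histone, read 5.13 in both miR-146a arrays and 5.15 in vector cells. The oocyte linker histone H1-8 read 4.34 and 4.25 in miR-146a cells, against 4.25 in vector cells, under the median.

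Clustered H3 and H4 sets had medians close to 0. Of 10 H3 sets 4 read lower and 3 higher in both arrays, the median being -0.03, and of 16 H4 sets 6 were lower and 2 higher, also with a median of -0.03. The 2 sets shared by H3 and H2A genes are in neither family's count. Both were lower in both arrays, with a median of -0.35, and both lay under the signal median. The H4 set with the highest signal carries the symbols of 14 H4 copies, which encode one protein. It read 11.33 and 11.29 in miR-146a cells, against 11.15 in vector cells. Both miR-146a arrays lay above the vector, 1.12-fold. The 5 sets with these 14 symbols ran from -0.09 to 0.16, with 2 higher and 0 lower in both arrays. H4C9 read 5.80 and 5.51 in miR-146a cells, against 5.89 in vector cells. Of 5 H4 sets above the median 3 held the same value in all 3 arrays.

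For H3, the set shared by 10 clustered copies read 6.12 and 5.69 in miR-146a cells, against 6.15 in vector cells. Replicate 1 lay near the vector and replicate 2 well below it, so the replicates differed by more than replicate 1 differed from the vector. A second set with the same 10 symbols read 3.63 and 3.58 in miR-146a cells, against 3.44 in vector cells, in the opposite direction and under the median. H3C8 read 7.14 and 7.08 in miR-146a cells, against 7.14 in vector cells. H3C1 differed by -0.52 and -0.32 in a set under the median. Only 2 clustered H3 sets stood above the median.

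The variant genes outside the clusters showed differences around 0. H2AZ1 and H2AZ2 encode the 2 forms of H2A.Z, a variant found around transcription start sites. H2AZ1 read 13.37 and 13.39 in miR-146a cells, against 13.40 in vector cells, and its other set differed by 0.01. H2AZ2 read 11.25 and 11.26 in miR-146a cells, against 11.26 in vector cells. The strongest set of H2AZ1 thus differed by -0.03 and -0.01, and that of H2AZ2 by less. The 4 sets of H2AZ2 ran from -0.22 to 0.06, the lowest reading 8.26 and 8.24 in miR-146a cells against 8.46 in vector cells.

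H2A.X, the variant phosphorylated at DNA breaks, is made from H2AX. Its strongest set read 11.58 and 11.65 in miR-146a cells, against 11.42 in vector cells. Another read 7.90 and 7.90 in miR-146a cells, against 7.76 in vector cells. Both sets exceeded the vector in each array, 1.14-fold and 1.11-fold, while the remaining 2 H2AX sets differed by -0.02 and -0.15. H2AJ, the gene for H2A.J, had 4 sets, and all 4 were lower in both arrays with differences of -0.16 to -0.07. Its strongest read 10.35 and 10.28 in miR-146a cells, against 10.47 in vector cells.

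H3.3, the H3 variant deposited outside replication, is encoded by H3-3A and H3-3B. Of the 8 sets shared by these genes, one read 13.62 and 13.61 in miR-146a cells, against 13.56 in vector cells. Another read 9.58 and 9.61 in miR-146a cells, against 9.45 in vector cells. These 2 lay above the vector in both arrays, as did a set at 13.42 and 13.37 against 13.36. Lower in both arrays were a set at 12.92 and 12.95 against 12.96 and one at 12.62 and 12.55 against 12.66. The 8 sets together ran only from -0.07 to 0.14. The 1 set of H3-3A alone read 6.36 and 6.18 in miR-146a cells, against 6.18 in vector cells.

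**Figure D3:**
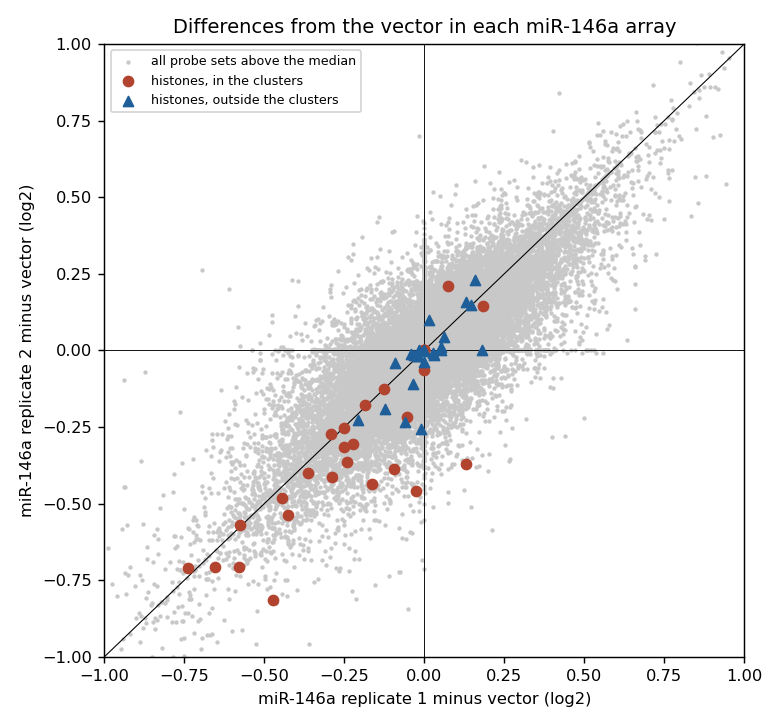
Difference from the vector in miR-146a replicate 1 (x axis, log2) and replicate 2 (y axis, log2) for all 27306 probe sets above the signal median (grey), clustered histone sets (red circles) and histone sets outside the clusters (blue triangles), with the line of equal values. Clustered sets spread down the lower left and the others gather at the centre; 50 grey sets beyond -1 or 1 are not drawn, and both differences share the 1 vector array, so their likeness is no evidence of stability.

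Probe design runs alongside these values. Of the 101 members 28 carry several symbols, up to 14, and histone copies can bind the same probes, so a value may stand for several genes. Among clustered sets above the median the 18 with 1 symbol had a median of -0.28 with 13 lower in both arrays, and the 10 shared sets a median of -0.19 with 7 lower. By older names, 59 sets belong to HIST1 alone, with 35 lower and 5 higher in both arrays and a median of -0.12. The 21 of them above the signal median had a median of -0.24, with 15 lower and 1 higher. Of the 4 HIST2 sets, the 3 above the signal median had a median of -0.64 and were all past 0.5, and the remaining one was the H2AC18 and H2AC19 set under the median. Of the 2 HIST3 sets, both of H2AC25, the one above the median was lower.

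The main test called no histone set. With limma across all 54613 sets and Benjamini-Hochberg adjustment at 0.05, 0 sets were called (0%), and the lowest adjusted p of any set was 0.0964. Without adjustment 19 histone sets were lower and 3 higher at p under 0.05, beside 10.2% lower and 10.0% higher of all sets. Of those 22, 8 had equal values in both miR-146a arrays, and 17.8% of histone sets and 19.3% of all sets had such equal replicates. With the variance prior taken from sets with unequal replicates, limma called 8 histone sets lower and 0 higher, beside 1.94% and 1.38% of all sets. That fit gave every set the same variance, so its calls follow the size of the mean difference, whatever the replicate spread of the set. A robust prior in limma gave 7 lower and 1 higher, beside 5.31% and 5.10% of all sets. Most of those histone sets had equal values in both miR-146a arrays, among them H4C1 at a difference of -0.08 and a set of H1-6 at -0.10. H2BC21 was the only histone set called with both of these priors. All these p-values rest on the spread between the 2 miR-146a arrays alone, pooled over sets in the fit with the prior from unequal replicates. That spread may be technical, and nothing was measured of the spread between vector cultures.

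Genes that serve histone synthesis were read beside the histones. From each list the set with the highest signal per gene was taken, and every gene with a set lay above the median. The counts of the 3 lists stand beside 36.0% higher and 33.1% lower in both arrays among all sets above the median. Of 20 genes for the transcription and 3′ processing of histone messages 19 had a set, 3 of them lower and 9 higher than the vector in both arrays, and their median difference was 0.01. SLBP, which binds the stem-loop, read 10.59 and 10.60 in miR-146a cells, against 10.59 in vector cells. NPAT, the coactivator of clustered histone genes, read 8.42 and 8.42 in miR-146a cells, against 8.41 in vector cells, while its other sets differed by -0.15 to -0.06. The strongest set of each thus lay at the vector's level. SYMPK, the scaffold of the cleavage complex, read 8.06 and 7.99 in miR-146a cells, against 7.71 in vector cells. ZNF473, a zinc-finger protein of the U7 machinery, read 7.50 and 7.43 in miR-146a cells, against 7.23 in vector cells. SRRT, which links the cap complex to RNA processing, read 11.14 and 11.17 in miR-146a cells, against 10.85 in vector cells. All 3 were above the vector in both arrays, although the other sets of SRRT ran from -0.19 to 0.36.

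Of 24 genes for histone chaperones and deposition factors, 14 read higher and 2 lower in both arrays, and the median difference was 0.07. TONSL, which binds newly made H4, read 7.70 and 7.66 in miR-146a cells, against 7.30 in vector cells. CHAF1A, of the complex that deposits H3 and H4 behind the replication fork, read 8.54 and 8.53 in miR-146a cells, against 8.24 in vector cells. NASP, a chaperone of free H3 and H4, read 11.59 and 11.57 in miR-146a cells, against 11.31 in vector cells. These 3 lay above the vector in both arrays. CENPA, the centromeric H3 variant, read 7.40 and 7.20 in miR-146a cells, against 7.53 in vector cells, below the vector in both.

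By their strongest sets, S-phase and proliferation genes also lay mostly above the vector. Of 25 listed genes 24 had a set, and 21 read higher and 2 lower in both arrays, their median difference being 0.14. E2F1, a transcription factor of S-phase entry, read 8.89 and 8.78 in miR-146a cells, against 8.38 in vector cells, 1.37-fold higher. CCNE1, for cyclin E1, read 8.71 and 8.87 in miR-146a cells, against 8.39 in vector cells. CDT1, which licenses replication origins, read 9.47 and 9.57 in miR-146a cells, against 9.22 in vector cells. In all 3 both miR-146a arrays were above the vector. The 2 genes whose strongest sets were lower in both arrays were CCNA2, for cyclin A2, with 9.82 and 9.95 in miR-146a cells against 10.05 in vector cells, and MKI67, for the proliferation marker Ki-67, with 9.94 and 9.93 against 10.05. Among these strongest sets, none of the 3 lists held one that differed by 0.5 in both arrays. Other sets of the same genes did not all read alike. The other 3 sets of MKI67 ran from -0.15 to 0.16, and the other set of CCNA2 differed by -0.34. With all sets counted, the S-phase list had 33 of 51 sets higher and 10 lower in both arrays, with a median difference of 0.11. The chaperone list had 31 of 64 higher and 14 lower, and the processing list 20 of 42 higher and 11 lower. Over all sets of the array, 29.1% were higher and 28.9% lower in both arrays. A second set of TOP2A, the gene for topoisomerase II alpha, read 6.24 and 6.37 in miR-146a cells, against 7.52 in vector cells, 2.33-fold lower, although its strongest set read 11.86 and 11.89 against 11.83. A second set of ANP32E, a chaperone of H2A.Z, read 7.33 and 7.33 in miR-146a cells, against 8.28 in vector cells, 1.92-fold lower, while its strongest set read 11.12 and 11.26 against 11.26. These 2 sets were the only ones of the 3 lists past 0.5 in both arrays. Weaker sets of RRM1, a ribonucleotide reductase subunit, and MCM4, of the replicative helicase, were lower too, by log2 differences of -0.36 and -0.33, against 0.19 and 0.14 in their strongest sets. The lists were picked by gene role with earlier results of these arrays known.

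**Figure D4:**
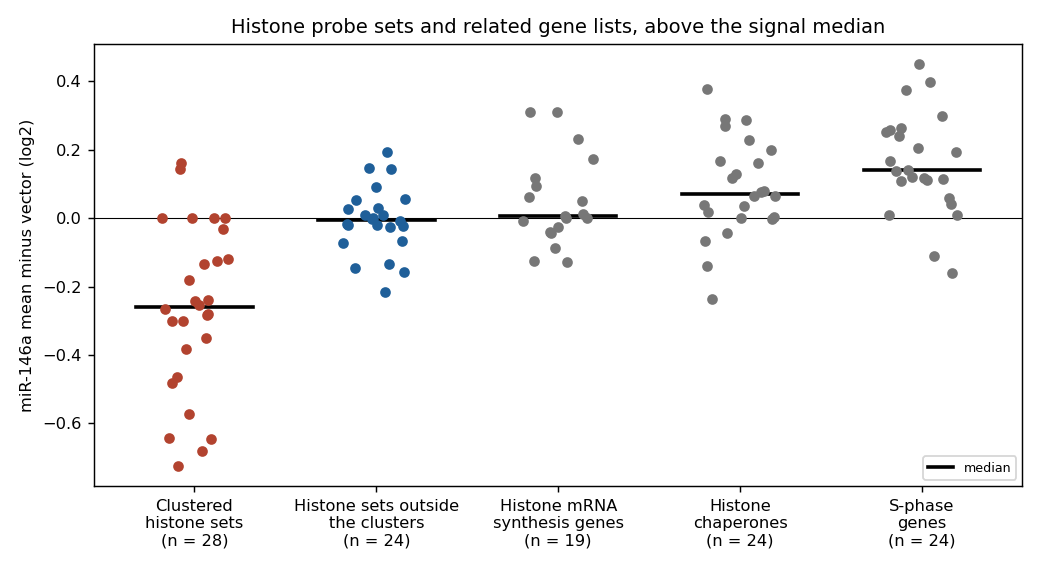
Difference of the miR-146a mean from the vector value (log2) for histone probe sets and for 1 probe set per gene of 3 lists, all above the signal median, with bars for medians. The clustered histone sets have a median of -0.26, the sets outside the clusters -0.01, and the lists 0.01, 0.07 and 0.14.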

How the data were processed

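The authors deposited log2 probe-set values, which per the submitters' processing notes come from RMA, for 3 arrays of total RNA labelled as biotinylated cRNA. The sources used here name neither the RMA version nor the batch of arrays it ran on. The values ran from 1.95 to 14.60. Groups were taken from the transduction in the labels, and replicate numbers from the titles. Probe sets were named by the platform annotation given, and all 77 gene IDs of members matched RefSeq. Signal is the mean of the group means, and its median over non-control sets was 5.13. No set was filtered out unless stated.

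The main test used limma 3.58.1 in R 4.3.3, with lmFit and eBayes, was two-sided and had its p-values adjusted by Benjamini-Hochberg over all 54613 non-control sets. It was also run on simulated data in which all sets shared 1 variance and replicates were not equal. These arrays differ in both respects, so that run does not show how the test performs on them. The main test has 1 residual degree of freedom, and the lone vector array is assumed to vary like the miR-146a arrays. Named sets were those past 0.5 in both arrays, up to 3 highest and lowest per family above the median, the strongest set per family and per gene outside the clusters, and up to 4 genes per list plus SLBP, NPAT and CENPA. All other sets whose values are given, such as those of H2AC25, H2AC14, H2AC8, H2BC5, CCNA2, MKI67, TOP2A and ANP32E, were named after their values were seen, and so was the count over all sets of each list chosen. Members and lists were chosen with earlier results of these data known. Alternatives changed the filter, sets per gene, shared or _x_at sets, normalization, variance prior, size rule and arrays. Promoters are the first start RefSeq lists per gene. Histone genes without a set matching the rule were not analysed here. Tables and figures were made with Python 3.11.15, pandas 2.3.3, numpy 2.4.6 and matplotlib 3.10.9.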

Additional observations from a re-analysis of the deposited data

How the results depend on the processing

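The counts and medians below are given as values of these 3 arrays, with no cause tested. Limma with Benjamini-Hochberg adjustment called 0 histone sets under each filter, normalization and trended prior tried. It called 8 with a robust prior and 8 with the prior from unequal replicates, and H2BC21 was the only set in both. With only sets above the signal median, 31 sets were lower and 8 higher in both arrays, since fewer sets entered. The medians were then -0.26 for clustered sets and -0.00569 for sets outside the clusters. The clustered sets left out had a median of -0.06. With 1 set per gene and shared sets left out, 2 sets were past 0.5 in the lower direction, 33 were lower and 5 higher, and the median outside the clusters was 0.0116. With shared sets left out, these were 2 past 0.5, 9 higher, and -0.00569 outside the clusters. Quantile normalization gave 25 higher and 0.00582 outside the clusters. At a size of 0.3 there were 12 lower sets, and at 1 there were 0. Leaving out either miR-146a array gave 5 to 7 sets past 0.5, 59 to 65 lower and 17 to 29 higher sets, and clustered medians of -0.125 to -0.0845. Of 28 named sets, 3 near 0 changed sign under quantile normalization and 0 under cyclic loess or without either array. No paired analysis was possible because there is 1 vector array, and its replicate number was given in accession order, not by its label. Limma without either miR-146a array was not run, since no residual degree of freedom is left. The number of arrays limits the precision, and no detection calls came with the values.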

Other observations

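Histone genes that neighbour each other on chromosome 6 did not always read alike. H2BC3 read 4.48 and 4.31 in miR-146a cells, against 4.88 in vector cells, in a set below the signal median. Its neighbour H2AC4 differed by -0.05 and -0.18. H2AC14 differed by -0.22 and -0.31, and its neighbour H2BC14 by -0.13 in both arrays. H2AC15 differed by -0.03 in both arrays, and its neighbour H2BC15 by 0.12 and 0.11. Apart from H2AC14, these sets lie below the signal median.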
